A study of Danio rerio with 3 samples.

Results

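The Rab genes encode small GTPases of membrane traffic, and their transcripts were described in endothelial cells sorted from zebrafish embryos. Members were all symbols that begin with rab and a number, leaving out symbols that name Rab-interacting proteins by a fip, gap or gef ending. The rule used symbols only and no expression value. It took 57 of the 14581 symbols in the table of the double positive cells. Of these, 56 are Rab GTPases. The remaining one, rab3ip, encodes a guanine nucleotide exchange factor for Rab8 in mammals and is given apart.

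The measured cells came from wild-type embryos of an incross of stocks carrying 2 transgenes, kdrl:mCherry and sele:GFP, grown without treatment at 28 °C to 72 hours post fertilization. Cells positive for both GFP and mCherry were collected by fluorescence-activated sorting of homogenized whole embryos, with 10000 to 300000 cells per population, and gave 1 library. The kdrl promoter marks vascular endothelium, and sele encodes the endothelial adhesion molecule E-selectin. The series has another 2 libraries, of kdrl:GFP + and kdrl:GFP - cells from embryos with the kdrl:GFP transgene at the same age. Their table lists 62 symbols that meet the rule, and a further 8 written in capitals, among 29359 different symbols. Its value columns are tied to neither population by any label, so no level was taken from it and differences between the sorted populations were not analysed here.

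A Rab GTPase acts as a switch. In the GTP-bound form it sits on a particular membrane and recruits effectors such as tethers, motors and sorting adaptors, and in the GDP-bound form it is drawn off the membrane by a GDP dissociation inhibitor. Different Rab proteins mark different compartments, so that Rab5 is known for early endosomes, Rab7 for late endosomes, Rab11 for recycling endosomes and Rab1 for traffic from the endoplasmic reticulum to the Golgi. In endothelium, Rab-dependent traffic is known to recycle receptors and the junctional cadherin and, in human cells, to move the Weibel-Palade bodies that store von Willebrand factor and P-selectin.

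Levels are FPKM, fragments assigned to a gene per kilobase of its length and per 1000000 fragments of the library. They can be compared between genes of the library after this length correction. With 1 library there is no error between samples and no test, and high or low below is a place among the genes of 1 library. Fragment numbers were not at hand, so the depth behind a value is unknown and values carry no counting error. A listed 0 was not read as absence. Endothelial markers listed for a check of the label were high, with 6 of 6 between 89.1 FPKM (tek) and 843 FPKM (cdh5). This check is weak, because the list was made with earlier results of these data known. Its members kdrl and sele are also the genes of the transgenes used for sorting. Markers of other tissues were present at lower summed levels, among them 117 FPKM for 3 epidermal keratin genes, 97.2 FPKM for 3 muscle genes, 58.8 FPKM for 4 macrophage and neutrophil genes, 38.98 FPKM for 4 neuronal genes and 25.97 FPKM for 2 retinal genes. The sum over 4 erythroid genes was 485 FPKM. The 6 endothelial markers summed to 2811 FPKM. In a bulk library, few cells of a type and little RNA per cell cannot be told apart.

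Rab transcripts lay above the middle of the library but spread over its whole range. The highest was rab11a at 318 FPKM, rank 240, and the lowest value above 0 was that of rab25a at 0.161 FPKM. Of the 56 Rab genes, 49 (87.5%) reached 1 FPKM, against 73.3% of all symbols. A level of 10 FPKM was reached by 31 (55.4%), against 39.96% of all symbols, and 100 FPKM by 9 (16.1%), against 5.51%. The median Rab gene stood at 13.5 FPKM and the median of all symbols was 5.98 FPKM. All symbols include many that few cells use, and 4 Rab genes (7.14%) were listed at 0, against 12.7% of all symbols.

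**Figure D1:**
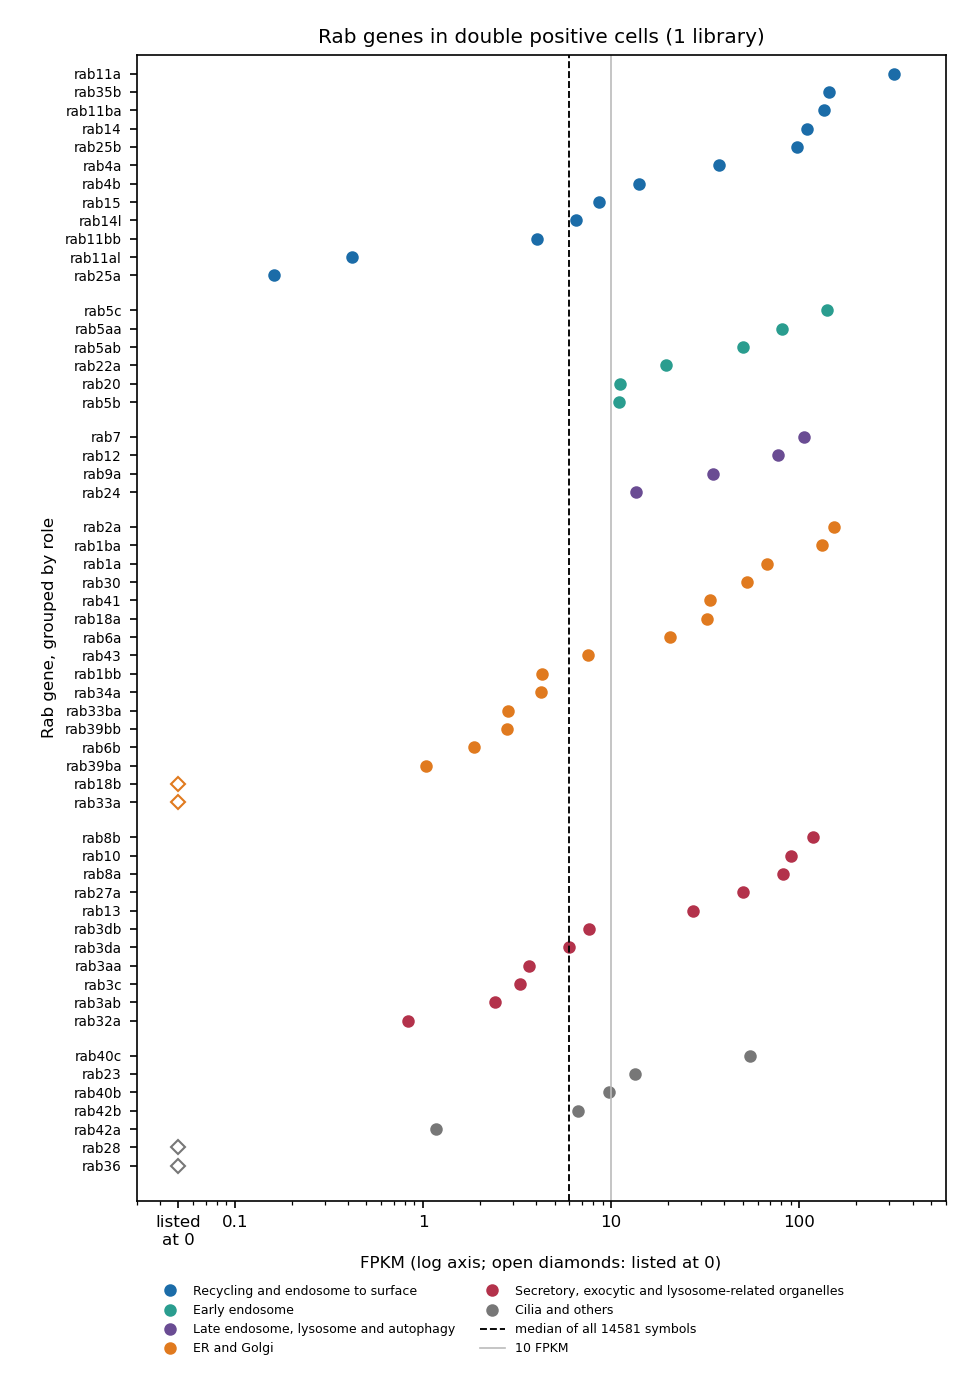
FPKM of each of the 56 Rab genes in the double positive library on a log axis, 1 point per gene, grouped by role and sorted within each role. Open diamonds mark the 4 genes listed at 0, the dashed line the median of all symbols (5.98 FPKM) and the grey line 10 FPKM. All early and late endosomal genes lie right of the grey line, whereas each of the other groups spans both sides of it.

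The Rab total was spread unevenly over the genes. Summed over the 56 genes it was 2413 FPKM, or 0.451% of the summed FPKM of the library. The 10 highest genes held 60.2% of this sum and the 20 highest held 86.9%. Such shares were not computed for all symbols, so this unevenness is not read as particular to the Rab genes. By place in the library, 24 of 56 Rab genes (42.9%) lay above the 75th rank percentile of all symbols and 7 (12.5%) at or below the 25th. Above the 90th rank percentile there were 15 Rab genes, and below the 10th there were 4, all listed at 0.

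**Figure D2:**
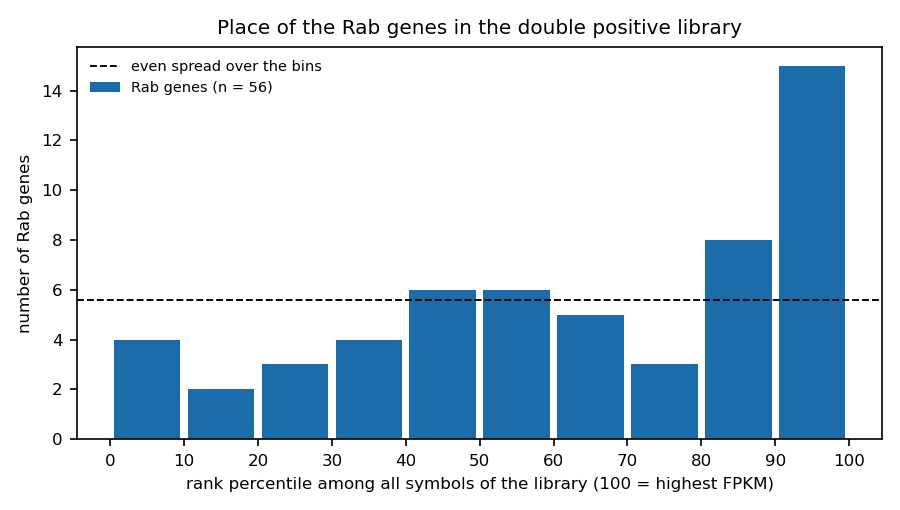
Number of Rab genes by rank percentile among all 14581 symbols of the double positive library, in bins of 10 percentiles (100 is the highest FPKM). The dashed line is the number per bin that an even spread of 56 genes would give, and the bin from 90 to 100 holds 15 genes.

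Recycling Rab genes held the largest part of the family's FPKM among the 6 role groups. The 12 genes of this group summed to 875 FPKM, 36.3% of the Rab total. Of these, 7 (58.3%) reached 10 FPKM and 4 (33.3%) reached 100 FPKM, against 39.96% and 5.51% of all symbols. Their median was 25.7 FPKM. The level of rab11a, a Rab of the recycling endosome, was 2.09-fold that of the next Rab gene of the table, rab2a. A copy of the same Rab number, rab11ba, stood at 135 FPKM, rank 597. Next to them stood rab35b, whose product returns endocytosed cargo to the plasma membrane, at 144 FPKM, rank 553. The gene rab14, of traffic between the trans-Golgi network and endosomes, stood at 109 FPKM, rank 733. The genes rab4a and rab4b, of rapid return from early endosomes, were lower at 37.4 and 14.1 FPKM, and rab11a was 8.52-fold above rab4a. The gene rab15, which in mammals acts on recycling endosomes, stood at 8.60 FPKM.

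One recycling gene known in mammals chiefly from epithelia was also among the 10 highest Rab genes. The gene rab25b, a relative of Rab11, stood at 96.9 FPKM, rank 825, and its copy rab25a at 0.161 FPKM, rank 12360. All 3 epidermal keratin genes listed as markers were above 10 FPKM, with krt5 at 59.1 FPKM, krt4 at 39.7 FPKM and cyt1 at 17.9 FPKM. The level of rab25b was 1.64-fold that of krt5, the highest of them. The part of epidermal cells in the rab25b value was not tested.

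Early endosomal Rab genes found under the rule were all at 10 FPKM or more, a level reached by 39.96% of all symbols. The 6 genes stood between 11.1 and 140.4 FPKM, with a median of 34.7 FPKM and 12.99% of the Rab total. Further Rab numbers on the list of this group, such as Rab31, had no symbol under the rule in the double positive table. The 4 copies of Rab5, the GTPase of early endosome fusion, made up 283 of the group's 313 FPKM. Among them rab5c was highest at 140.4 FPKM, rank 575, followed by rab5aa at 81.3 FPKM, rab5ab at 49.9 FPKM and rab5b at 11.1 FPKM. The gene rab22a, of early endosomal sorting, stood at 19.5 FPKM and rab20, which in mammals acts in endosome and phagosome maturation, at 11.2 FPKM. The level of rab5c was 7.21-fold that of rab22a. A threshold of 10 FPKM lies just under rab5b and rab20, and 3 of the 6 genes stood at 20 FPKM or more.

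All 4 Rab genes of late endosomes, lysosomes and autophagy exceeded 10 FPKM, against 39.96% of all symbols, and their median was 55.9 FPKM. Not every Rab number on the list of this group had a symbol under the rule. With rab7b, which the table lists under an older symbol, the late endosomal median was 34.7 FPKM over 5 genes. With rab21, listed likewise, that of the early endosomal group was 49.9 FPKM over 7 genes. The gene rab7, which governs late endosome and lysosome fusion, stood at 106 FPKM, rank 759. It was followed by rab12, of delivery to lysosomes, at 77.2 FPKM, by rab9a, of return from late endosomes to the Golgi, at 34.7 FPKM and by rab24, of autophagy, at 13.6 FPKM. These 4 genes held 9.59% of the Rab total, and rab5c exceeded rab7 by 1.33-fold. The order of the endosomal stages by summed FPKM was thus recycling with 875 FPKM, early with 313 FPKM and late with 231 FPKM. The numbers of genes in these groups differ (12, 6 and 4). By median FPKM per gene the order was the reverse, with 25.7 FPKM for recycling, 34.7 FPKM for early and 55.9 FPKM for late. With rab21 and rab7b counted, early stood above late and recycling stayed lowest by median.

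The exocytic and secretory group was led by rab8b, and its Rab3 genes and rab32a all lay under 10 FPKM. Its 11 genes held 16.3% of the Rab total, with a median of 7.60 FPKM. Of these, 5 (45.5%) stood at 10 FPKM or more, close to the 39.96% of all symbols. The genes rab8b and rab8a, whose products carry vesicles from the Golgi to the plasma membrane, stood at 119 and 81.8 FPKM. The gene rab10, of exocytic and endosomal carriers, stood at 90.6 FPKM, and rab13, which in epithelial and endothelial cells delivers junction proteins, at 27.1 FPKM. The gene rab27a stood at 50.4 FPKM, rank 1672. Its product is known for the release of Weibel-Palade bodies in human endothelial cells, where Rab3d acts as well. The Rab3d copies were lower, with rab3db at 7.60 FPKM and rab3da at 5.93 FPKM, so that rab27a was 6.63-fold and 8.50-fold above them.

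Like rab3da, the remaining Rab3 genes, known from synaptic vesicles, were all under the median of the library. They were rab3aa at 3.64 FPKM, rab3c at 3.30 FPKM and rab3ab at 2.42 FPKM. Over all 5 Rab3 genes the sum was 22.9 FPKM, less than rab27a alone. Neuronal markers lay in a similar range, with elavl3 at 6.41 FPKM, snap25a at 5.23 FPKM and syt1a at 3.37 FPKM, while stmn2a stood at 23.97 FPKM. The part of neuronal cells in the Rab3 values was not tested. The lowest gene of the group was rab32a, of melanosomes and other lysosome-related organelles, at 0.832 FPKM, rank 10939.

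Rab genes of the endoplasmic reticulum and Golgi ranged from rab2a, next after rab11a among all members, to genes listed at 0. Of 16 genes, 7 (43.75%) reached 10 FPKM, close to the 39.96% of all symbols. A level of 100 FPKM was reached by 2 (12.5%), against 5.51% of all symbols, and 2 were listed at 0. The median of the 16 genes, 5.91 FPKM, lay close to that of all symbols, and they held 21.4% of the Rab total. The highest were rab2a, of traffic between Golgi and endoplasmic reticulum, at 152 FPKM, rank 525, and rab1ba and rab1a, of export from the endoplasmic reticulum, at 132 and 67.6 FPKM. The Golgi genes rab30 and rab41 stood at 52.9 and 33.3 FPKM. The lipid droplet and endoplasmic reticulum gene rab18a stood at 32.4 FPKM and rab6a, of traffic within the Golgi, at 20.4 FPKM. Below 10 FPKM were rab1bb at 4.30 FPKM, rab34a at 4.25 FPKM, rab33ba at 2.84 FPKM, rab39bb at 2.81 FPKM, rab6b at 1.87 FPKM and rab39ba at 1.04 FPKM. The symbol rab43 stood at 7.53 FPKM, but an older symbol of the same gene (zgc:153788) stood at 27.6 FPKM. With older symbols counted, 8 of 19 entries of this group reached 10 FPKM, with a median of 4.30 FPKM. The genes rab18b and rab33a were listed at 0.

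The last group gathered Rab genes of cilia and of less studied function and was the lowest by summed FPKM, with 3.55% of the Rab total over 7 genes. Its highest gene was rab40c, whose product in mammals joins a ubiquitin ligase through a SOCS box, at 54.6 FPKM, rank 1551. The related rab40b stood at 9.77 FPKM. The gene rab23, a negative regulator of hedgehog signalling in mice, stood at 13.4 FPKM. The pair rab42b and rab42a stood at 6.70 and 1.18 FPKM. The genes rab36 and rab28, of which Rab28 is known from cilia and photoreceptors, were listed at 0, while the retinal markers crx and rho stood at 15.8 and 10.1 FPKM.

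Several Rab numbers had more than 1 gene in the table, and the library did not hold these genes at equal levels. Copies here are symbols with the same number after rab, such as rab5aa, rab5b and rab5c. Whether they are duplicates of 1 gene or separate relatives was not examined. The 56 genes fell into 34 Rab numbers, of which 14 had 2 or more symbols in the table (36 copies in all). In 12 of the 14 the second copy was above 0, and in 7 of these 12 the highest copy exceeded it by 1 or more on the log2(FPKM + 1) scale. In the other 2, Rab18 and Rab33, the second copy was listed at 0. In 7 of the 14 the highest copy took more than 75% of the summed FPKM of its number. In 10 the highest copy stood at 10 FPKM or more, and in 5 of these the second copy did too. Copies were ordered by FPKM before they were compared, so the highest exceeds the second by construction. Such gaps and shares were not computed for other genes, so they are not read as particular to the Rab genes. Older symbols of the table add another Rab6 copy (zgc:112018, now rab6bb, at 4.09 FPKM) and another Rab7 copy (zgc:91909, now rab7b, at 15.03 FPKM), which makes 15 numbers with 39 copies, 8 of the numbers with a leading copy of more than 75%. Copies with near-identical sequence can share reads, and how the authors' processing divided them is not stated in the labels, so single values of such copies are uncertain.

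In several numbers more than 1 copy stood at 10 FPKM or more. In Rab8 the levels of rab8b and rab8a differed by 1.45-fold, a log2 difference of 0.53. In Rab5, rab5c took 49.7% of the sum and exceeded rab5aa by 1.73-fold and rab5ab by 2.81-fold, and rab5b by 12.7-fold. In Rab1, rab1ba exceeded rab1a by 1.95-fold, and rab1a in turn exceeded rab1bb by 15.7-fold. In Rab11, rab11a took 69.5% of the sum of 458 FPKM and exceeded rab11ba by 2.36-fold. The other Rab11 copies were low, with rab11bb at 4.03 FPKM and rab11al at 0.422 FPKM, so that rab11ba was 33.5-fold above rab11bb. In Rab4, rab4a exceeded rab4b by 2.65-fold.

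Other numbers rested mainly on 1 copy. In Rab25, rab25b held 99.8% of the sum. In Rab14, rab14 held 94.4% and exceeded rab14l, which stood at 6.49 FPKM, by 16.8-fold. In Rab40, rab40c held 84.8%. In Rab6, rab6a held 91.6% of the sum over the symbols named rab6, and 77.4% with rab6bb, which it exceeded by 4.99-fold. In Rab7, rab7 held 87.6% with rab7b counted, a ratio of 7.05, although rab7b itself stood above 10 FPKM, at 15.03 FPKM. No ratio is given for Rab18 and Rab33. Rab3 had no leading copy, with 33.2% of the sum for the highest of 5, and all of them were under 10 FPKM. Rab33, Rab39 and Rab42 also had no copy at 10 FPKM or more.

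**Figure D3:**
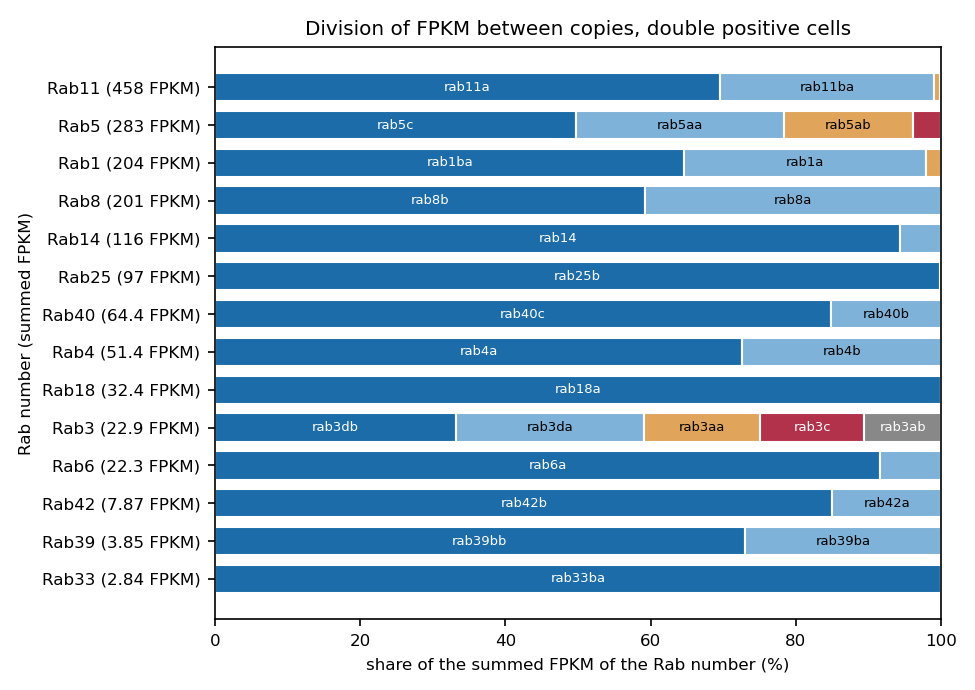
Share of each copy in the summed FPKM of its Rab number (horizontal axis, %), for the 14 numbers with 2 or more symbols in the table, ordered by their sum, which is given beside each number. Colours run from the highest copy (dark blue) to lower ones. Rab8 and Rab5 are divided between copies, whereas Rab25 and Rab14 are taken almost wholly by 1 copy. Older symbols are not drawn, and with rab6bb the share of rab6a is 77.4%.

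Symbols of older naming hide further Rab genes. A RefSeq gene table of assembly GRCz12tu lists 53 of the 56 members as current symbols. The other symbols are now rab7a (rab7 here), rab1ab (rab1a here) and rab6ba (rab6b here). It also gives current names of Rab GTPase genes to 5 symbols of the table that the symbol rule does not take. The largest is zgc:154045, now rab21, a Rab of integrin endocytosis and early endosomes, at 147 FPKM, rank 541. It was 1.05-fold the level of rab5c and would stand between rab2a and rab35b in the order of all Rab genes. The others are zgc:153788 (rab43) at 27.6 FPKM, zgc:91909 (rab7b) at 15.03 FPKM, zgc:112018 (rab6bb) at 4.09 FPKM and LOC572060 (rab33ba) at 2.83 FPKM. With these 5 symbols there were 61 Rab entries, of which 34 (55.7%) stood at 10 FPKM or more, against 39.96% of all symbols. The genes rab43 and rab33ba each have more than 1 of these entries. With rab21 the early endosomal group summed to 461 FPKM. This was 17.7% of the sum over the 61 entries, 2610 FPKM, of which the recycling group held 33.5%.

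The machinery that serves all Rab proteins was present, with the extraction factor gdi2 above every Rab gene. Regulator genes were looked up by their listed symbol only, so a gene not found may stand under another name. Of 8 listed genes of prenylation and membrane extraction, 7 were found and 5 (71.4%) stood at 10 FPKM or more, against 39.96% of all symbols. The GDP dissociation inhibitor gene gdi2 stood at 359 FPKM, rank 208, which was 1.13-fold rab11a. The gene rabac1, of a prenylated Rab acceptor, stood at 53.4 FPKM. The geranylgeranyl transferase genes rabggtb and rabggta stood at 33.3 and 8.98 FPKM, and the Rab escort protein gene chm at 13.3 FPKM.

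Exchange factors load a Rab with GTP, and GTPase activating proteins speed its hydrolysis. Of 23 listed exchange factor genes, 8 were found, with a median of 9.52 FPKM. Of these, 3 (37.5%) stood at 10 FPKM or more, close to the 39.96% of all symbols. The highest were ccz1, a part of the Rab7 exchange factor, at 23.9 FPKM, and the DENN domain genes dennd5b and dennd4a at 17.1 and 12.02 FPKM. The Rab5 exchange factor gene rabgef1 stood at 9.24 FPKM and rab3ip was listed at 0. Of 28 listed genes of GTPase activating proteins, 13 were found and 11 (84.6%) stood at 10 FPKM or more, none at 100. Their median was 16.2 FPKM and they lay within 6.04 and 30.6 FPKM. The highest were usp6nl, whose product acts on Rab5 in human cells, at 30.6 FPKM, tbc1d5, which acts on Rab7 in mammals, at 27.3 FPKM and rab3gap2 at 22.3 FPKM. The partner subunit gene rab3gap1 stood at 16.2 FPKM.

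Effector and tether genes had a median of 12.2 FPKM. Of the 38 found (69 listed), 26 (68.4%) stood at 10 FPKM or more, against 39.96% of all symbols. The highest was micall2a, whose mammalian relative is an effector of Rab8 and Rab13 at cell junctions, at 131 FPKM, rank 619, which was 4.82-fold the level of rab13. It was followed by genes of Rab5 effectors, ankfy1 at 83.2 FPKM and rabep2 at 59.4 FPKM. The relative rabep1 stood at 12.2 FPKM, so rabep2 exceeded it by 4.88-fold. All 8 exocyst genes, whose complex tethers exocytic and recycling vesicles, were found between 7.16 and 41.3 FPKM. The highest was exoc6, whose mammalian relative binds Rab11, and 7 of the 8 stood at 10 FPKM or more. Of the Rab11 interacting genes in the table, rab11fip3 stood at 34.99 FPKM, rab11fip4a at 1.39 FPKM and rab11fip4b at 0.259 FPKM. The gene myo5b, of a Rab11 motor, stood at 0.135 FPKM, rank 12450. Other listed genes of this motor class and of Rab11 partners were not found by symbol. The gene sytl4, whose product links Rab27a to secretory granules in mammals, stood at 11.5 FPKM. The 4 core genes of the endosomal tethers (vps11, vps16, vps18 and vps33a) lay between 6.09 and 16.2 FPKM.

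**Figure D4:**
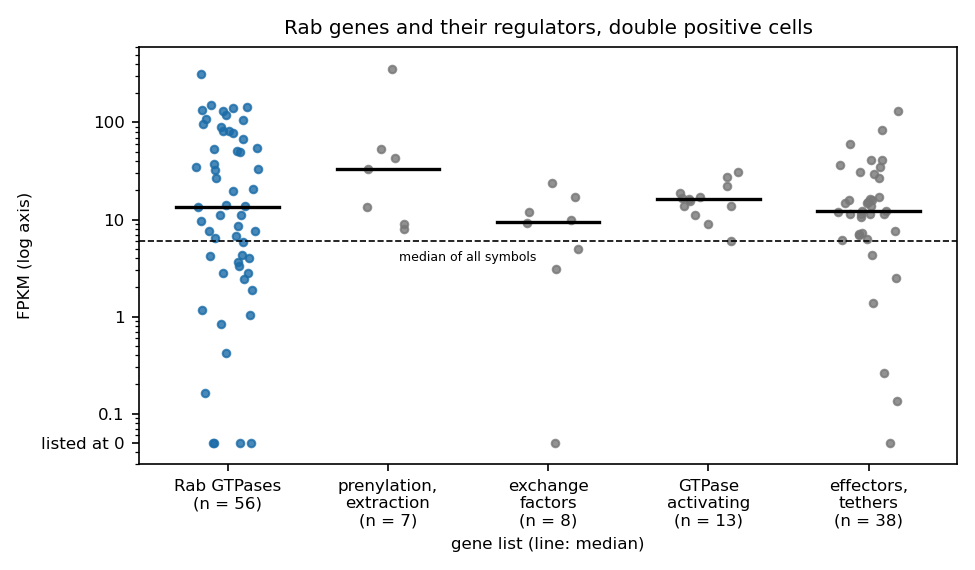
FPKM on a log axis of the 56 Rab genes (blue) and of 4 lists of regulators (grey), 1 point per gene, in the double positive library. Black lines are medians (13.5 FPKM for Rab genes), the dashed line is the median of all symbols (5.98 FPKM), and points at the bottom are genes listed at 0. The Rab genes reach from 0 to 318 FPKM, and the 13 genes found for GTPase activating proteins (28 listed) from 6.04 to 30.6 FPKM. A range widens with the number of genes, and the lists differ in size.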

How the data were processed

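RNA of sorted cells was sequenced. Per the labels' protocols, total RNA was extracted with a carrier, a kit depleted ribosomal RNA, and 50 ng of RNA went into the library. Per the submitters' processing notes, the tools were cutadapt, TopHat2 2.0.11 and Cufflinks 2.2.1 with build Zv9 (danRer7). Annotation, filters and depth are not stated there. The authors deposited 1 FPKM value per symbol for the double positive library. The other table's 2 value columns were not used, since no label ties them to a population. No authors' comparison was in it, so that planned description was not made.

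Ranks (ties at their mean), counts at 1, 10 and 100 FPKM, medians and shares of summed FPKM were computed in Python 3.11.15 with pandas 2.3.3 and checked on made-up data. Copies were compared as log2(FPKM + 1). Role, regulator and marker lists came from textbook knowledge. Members and lists were chosen with earlier results of these data known, and the sub-groups of effectors (exocyst, core tether genes, Rab5 and Rab11 partners) after values were seen. Named were the 10 highest Rab genes, every copy of a shared number, the highest and lowest of each role, members listed at 0 and the 3 highest of each regulator list. Of the genes so chosen, 1 is not reported here. Other named genes were added after their values were seen. Older symbols were matched through the RefSeq table, whose coordinates were not used because its build differs from that of the data. Thresholds, gene filters, scaling, list membership and pseudocount were varied. No sequences are shown.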

Additional observations from a re-analysis of the deposited data

How the results depend on the processing

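A count or value was taken as unmoved when it stayed within 1.5 times. Of the main counts and medians under other settings, 44 stayed and 13 moved. At 20 FPKM in place of 10 FPKM, the count fell to 3 early endosomal Rab genes, 1 of cilia and others, 1 exchange factor, 3 GTPase activating genes and 10 effectors. At 5 FPKM it was 4 of cilia and others and 5 exchange factors. The median of the 57 members was 13.4 FPKM, and 20.4 FPKM over members at 1 FPKM or more, where low members are left out by construction. Rescaling all symbols to a sum of 1000000 gave 25.1, and 27.8 without rn7sk, which held 9.95% of the summed FPKM. Without Rab numbers of shared role (10, 13, 14, 18 and 35), the recycling median was 14.1 FPKM and 3 secretory genes stood at 10 FPKM or more. With pseudocounts of 0.1 and 5 FPKM, the log2 ratio of highest to second copy moved in 8 of 28 values. With 5 FPKM it fell under 1 for rab42b over rab42a (0.92, against 1.82 with 1 FPKM) and for rab33ba over rab33a (0.65, against 1.94). With 0.1 FPKM it rose above 1 for rab39bb over rab39ba (1.35, against 0.90). For Rab18 and Rab33 the second copy is listed at 0 and such a ratio is set by the pseudocount. Counting these, 9 of 14 numbers had a gap of 1 or more with 1 FPKM, 10 with 0.1 FPKM and 7 with 5 FPKM. With older symbols matched, chosen after seeing the data, the count with 1 FPKM was 10 of 15, and the late endosomal median was 34.7 FPKM.

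No paired analysis was possible because each population had 1 library. The 4 alternatives planned for kdrl:GFP + against kdrl:GFP - cells were not run. Unknown depth limits the values under 1 FPKM most, and of the 10 symbols that only the other table lists, 8 matched no symbol here.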

Other observations

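Some Rab genes occur under more than one symbol of the double positive table. The gene now named rab43 has entries at 7.53 FPKM (rab43) and 27.6 FPKM (zgc:153788), a ratio of 3.67. The gene now named rab33ba has entries at 2.84 FPKM (rab33ba) and 2.83 FPKM (LOC572060), at neighbouring ranks 9007 and 9008. The symbol c20orf24, now rab5if, whose product is no GTPase, stood at 31.7 FPKM. The listed values of rab10 and of the integrin gene itga5 were equal, 90.6 FPKM for both.

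The rule was met by 67 lower-case symbols over both tables, of which 52 were shared. The 10 in the kdrl:GFP table only include rab38a, rab38b and rab32b, of lysosome-related organelles, and rab3b. Those in the double positive table only were rab28, rab39ba, rab39bb, rab41 and rab6b. Names differ between the annotations of the tables, so a missing symbol says nothing of expression.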
